A study of Mus musculus with 20 samples.

Results

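Toll-like receptors are membrane proteins of innate immunity, and the 10 members of the mouse family described here were Tlr1, Tlr2, Tlr3, Tlr4, Tlr5, Tlr6, Tlr7, Tlr8, Tlr9 and Tlr13. They were taken by gene symbol from the array, which gives 34797 gene names in all and carried 14 probes for the receptors among 55681 probes for transcripts. Of these 14 probes, 12 passed the filter on dim signal and were tested, together with 36920 probes in all.

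Each receptor has an outer domain of leucine-rich repeats that meets the ligand and an inner TIR domain that recruits adaptors such as MyD88, from which kinases lead to NF-κB and interferon regulatory factors. TLR2 pairs with TLR1 or TLR6 at the cell surface and senses bacterial lipoproteins, TLR4 senses lipopolysaccharide and TLR5 senses flagellin. TLR3, TLR7, TLR8, TLR9 and TLR13 act in endosomes and sense nucleic acids, and macrophages and other myeloid cells are known for carrying many of these receptors. The pleural surface of the diaphragm is a place where long fibers are known to be retained and to attract macrophages.

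The study asked which genes change at the pleura after exposure to asbestos fibers or carbon nanotubes of different length. RNA was measured in the diaphragm of 20 female C57Bl/6 mice, 4 in each of 5 groups, 12 weeks after an injection into the pleural cavity at an age of 8 weeks. The control group received 100 μL of the vehicle, 0.5% bovine serum albumin in saline. The SFA group received shortened amosite asbestos, in which 3.1% of fibers were 5 μm or longer, and the LFA group received amosite enriched for long fibers, in which 100% were. Both asbestos samples came from 1 batch and were given at 25 μg per mouse, whereas the short carbon nanotubes (NTS) and the long carbon nanotubes (NTL) were given at 5 μg per mouse, so that material and dose differed together. All mice were wild type, and all particles were given in the vehicle of the controls.

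Each mouse gave 1 single-color array. Levels below are log2 signals relative to the 75th percentile of the same array, so that 0 is a signal brighter than 75% of the spots, and a level was compared only within a probe. The 75th percentile of the arrays ranged from 294 to 996 signal units, lowest for control replicate 2, and no spot was saturated. A probe was called when its change was at least 2-fold, which is 1 on the log2 scale, with an adjusted p under 0.05 (limma, Benjamini-Hochberg over the 36920 probes), and a gene was counted by its brightest probe. The median change of all tested probes was -0.28 in LFA and -0.25 in NTL against control, so that a receptor at these values moved with the array as a whole. Because whole tissue was measured, fewer cells of a type and less RNA per cell cannot be told apart.

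In LFA-exposed mice 4 of the 10 receptor genes were called higher than control (Tlr1, Tlr2, Tlr6 and Tlr13), where 2.22% of all tested probes were called higher, and none was called lower. In NTL-exposed mice 4 of the 10 were called higher, the same genes, against 3.63% of all tested probes. In SFA-exposed mice 0 of 10 were called (higher calls, 0% of all probes; 0 members at an unadjusted p under 0.05), and in NTS-exposed mice 0 of 10 (higher calls, 0% of all probes; 2 members, Tlr4 and Tlr9, at an unadjusted p under 0.05). Of all 36920 tested probes, 404 were higher and 439 lower in SFA at an unadjusted p under 0.05 (limma), and 616 higher and 672 lower in NTS. The median change of the 10 genes was 0.91 in LFA and 1.25 in NTL, and 0.12 in SFA and -0.14 in NTS. A second Tlr7 probe was called in both long-fiber groups whereas the brightest Tlr7 probe was not, as described with that gene. The 4 comparisons with control share the same 4 control arrays.

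**Figure D1:**
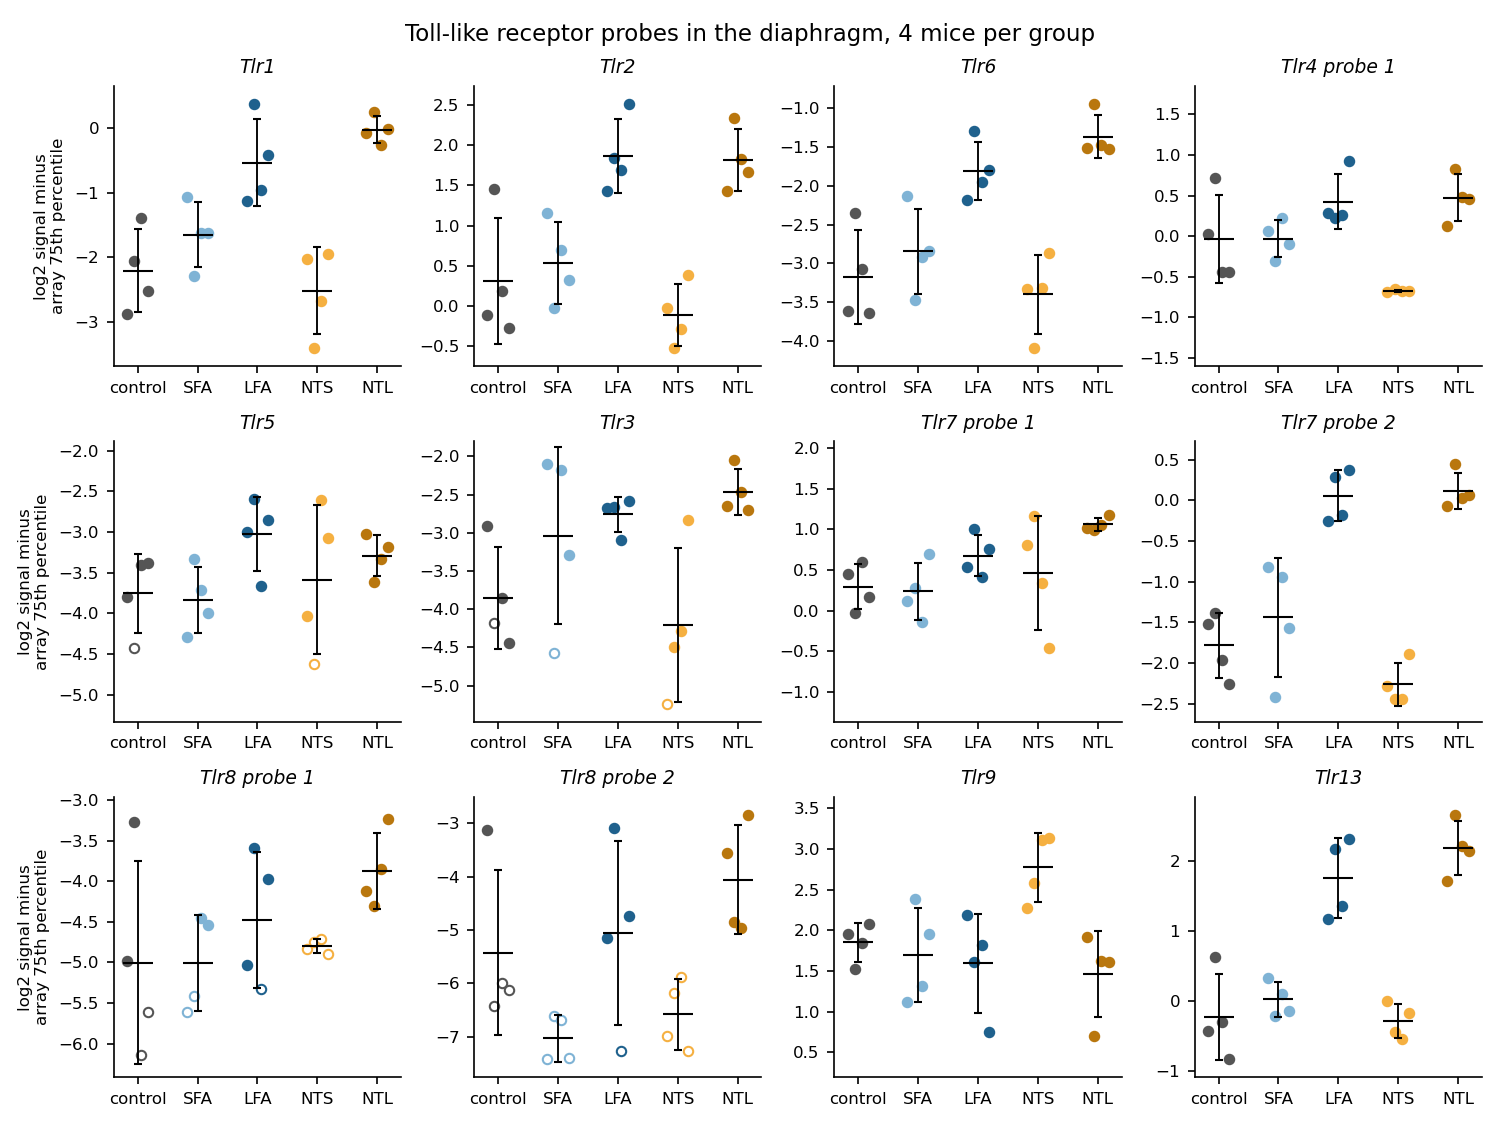
Level of each of the 12 tested receptor probes in every mouse (y axis, log2 signal minus the 75th percentile of the array; x axis, group). Points are mice, open points were not well above background, and bars give the mean and SD of 4 mice. For Tlr13 the LFA points lie between 1.17 and 2.32 and the NTL points between 1.72 and 2.66, above every point of the other groups, and both Tlr8 probes fall into the range of open points.

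RNA of Tlr1, Tlr2 and Tlr6, whose proteins pair at the cell surface, rose in both long-fiber groups, and protein was not measured on the arrays. Tlr1 was probed on the minus strand at chr5:65316115-65316174 (NCBI37, as in the array files). Its levels were -2.87, -2.06, -1.39 and -2.51 in the 4 control mice and -1.07, -2.29, -1.62 and -1.62 in the SFA mice. They were -1.13, 0.36, -0.96 and -0.42 in LFA, -2.02, -3.40, -2.68 and -1.95 in NTS, and -0.08, 0.24, -0.27 and -0.01 in NTL. Every LFA and every NTL mouse lay above every control mouse, while SFA and NTS mice overlapped with control. The change was 1.67 ± 0.40 in LFA (log2, SE, n = 4 against 4; limma adjusted p = 0.0257), which is 3.19-fold, and 2.18 ± 0.40 in NTL (adjusted p = 0.00269), which is 4.53-fold.

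Tlr6, the neighbor of Tlr1 in the genome and its closest relative, was probed at chr5:65344365-65344424 on the same strand. Its levels were -3.62, -2.35, -3.08 and -3.64 in control, -2.19, -1.30, -1.95 and -1.80 in LFA, and -1.51, -0.95, -1.48 and -1.53 in NTL. All mice of both long-fiber groups lay above all control mice. The SFA levels ran from -3.47 to -2.14 and the NTS levels from -4.10 to -2.86, overlapping with control. Tlr6 rose by 1.36 ± 0.34 in LFA (limma adjusted p = 0.0336) and by 1.81 ± 0.34 in NTL (adjusted p = 0.00379). With normexp background correction these changes were 0.70 in LFA, where the call was lost, and 1.02 in NTL. The probes of Tlr1 and Tlr6 do not share their sequence: the best ungapped match was 40% identical bases over 45 aligned bases, and the closest match between probes of 2 receptor genes was Tlr1 with Tlr2, at 61.7% over 47 bases.

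Tlr2, the shared partner of both, had 1 probe at chr3:83640344-83640403 that was printed on 10 spots of each array, whereas the other receptor probes had 1 or 2 spots. Its levels were -0.11, 1.45, 0.18 and -0.28 in control, 1.43, 1.85, 1.70 and 2.51 in LFA, and 1.44, 2.34, 1.83 and 1.67 in NTL. Control replicate 2, the dimmest array, was as high as the lowest LFA and NTL mice, and the other 3 control mice lay below all of them. The change was 1.56 ± 0.37 in LFA (limma adjusted p = 0.0265) and 1.51 ± 0.37 in NTL (adjusted p = 0.019), or 2.95-fold and 2.85-fold. Without control replicate 2 the Tlr2 change was 1.94 in LFA and 1.89 in NTL. The SFA levels, from -0.03 to 1.16, and the NTS levels, from -0.53 to 0.38, overlapped with control.

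The other surface receptors were not called against control. Tlr4 was read by a probe at chr4:66503470-66503529 with levels of 0.03, 0.71, -0.44 and -0.44 in control and 0.29, 0.23, 0.26 and 0.93 in LFA. The NTL levels were 0.12, 0.83, 0.49 and 0.45, and the NTS levels were -0.68, -0.65, -0.68 and -0.67. The long-fiber groups overlapped with control (0.46 ± 0.26, limma adjusted p = 0.287 in LFA and 0.51 ± 0.26, adjusted p = 0.25 in NTL). All 4 NTS mice lay below all 4 control mice, by a mean of -0.64 ± 0.26 that was not called (limma adjusted p = 1.0), where all NTS arrays lay below all control arrays for 0.864% of probes. A second Tlr4 probe, for another transcript, was well above background on 2 of 20 arrays and was not tested. Tlr5 levels lay between -4.42 and -3.38 in control, between -3.66 and -2.59 in LFA and between -3.62 and -3.02 in NTL, and its changes of 0.73 ± 0.39 in LFA and 0.46 ± 0.39 in NTL were not called (limma adjusted p = 0.257 and 0.509).

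Among the endosomal receptors, Tlr13, a sensor of bacterial ribosomal RNA, changed most. Its probe lies on the plus strand at chrX:103355773-103355832. The levels were -0.42, 0.63, -0.29 and -0.83 in control and 0.34, -0.20, 0.11 and -0.14 in SFA. They were 1.17, 2.18, 1.37 and 2.32 in LFA and 1.72, 2.66, 2.22 and 2.15 in NTL, all above every control mouse, while the NTS mice lay between -0.54 and -0.0017. Tlr13 rose by 1.99 ± 0.32 in LFA (3.96-fold, limma adjusted p = 0.00271) and by 2.41 ± 0.32 in NTL (5.32-fold, adjusted p = 0.000241). Counted over all 10 receptor genes by their brightest probe, the LFA mice lay entirely above the control mice for 3 (Tlr1, Tlr6 and Tlr13), against 4.6% of all tested probes, and the NTL mice for 5 (also Tlr3 and Tlr7), against 6.33%.

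The stretch of 250 bases before the transcript starts of the 4 called genes was searched for 3 motifs on both strands. They were the PU.1 core GAGGAA, bound by a factor of myeloid cells, the AP-1 site TGANTCA and the NF-κB consensus, by its name. RefSeq (GRCm38.p6) windows were listed for 8 of the 10 receptor genes, with 2 windows each for Tlr1 and Tlr6. GAGGAA stood in 1 Tlr1 window and in the Tlr13 window (23.3% of all 32851 windows held it), and the NF-κB consensus stood in the Tlr2 window as 2 overlapping matches (7.25% of all windows). No window of these 4 genes held the AP-1 site (6.75% of all windows), and neither Tlr6 window held any of the 3 motifs. The windows of uncalled receptors held motifs too: GAGGAA in Tlr8 and Tlr9, the AP-1 site in Tlr9 and the NF-κB consensus in Tlr3. The windows of called genes with a match are printed below, 5′ to 3′ on the strand of the gene with the matched letters in capitals, and a match is a description of the letters only.
Tlr1, chr5:64933559-64933808, minus strand: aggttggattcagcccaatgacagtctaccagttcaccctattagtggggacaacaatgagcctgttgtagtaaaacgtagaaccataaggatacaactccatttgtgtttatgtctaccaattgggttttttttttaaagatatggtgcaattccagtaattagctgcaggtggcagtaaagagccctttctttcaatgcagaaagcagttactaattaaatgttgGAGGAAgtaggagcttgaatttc
Tlr2, chr3:83841609-83841858, minus strand: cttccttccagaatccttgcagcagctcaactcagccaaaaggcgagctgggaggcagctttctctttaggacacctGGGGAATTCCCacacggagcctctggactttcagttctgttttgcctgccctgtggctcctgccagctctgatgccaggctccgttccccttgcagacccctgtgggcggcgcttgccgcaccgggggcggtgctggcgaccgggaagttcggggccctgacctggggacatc
Tlr13, chrX:106143025-106143274, plus strand: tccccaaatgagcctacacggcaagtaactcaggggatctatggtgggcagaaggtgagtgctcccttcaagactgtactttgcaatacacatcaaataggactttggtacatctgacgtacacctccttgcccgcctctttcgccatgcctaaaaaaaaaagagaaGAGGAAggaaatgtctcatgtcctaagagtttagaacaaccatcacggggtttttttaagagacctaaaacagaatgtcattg

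Tlr7, a sensor of single-stranded RNA, had 3 probes that did not behave alike. Probes 1 and 2 lie on the same transcript, at chrX:163742863-163742922 and chrX:163743146-163743205 (minus strand), with 283 bases between their starts. Probe 3, for another transcript, was well above background on 0 of 20 arrays and was not tested. The first 30 of the 60 bases of probes 1 and 2 are shown here because the result turns on which of them is read, with an alternating run of 11 bases at the start of probe 1 in capitals.
Tlr7 probe 1: TCTCTCTCTCTgatactgaactgtaccaga
Tlr7 probe 2: cataaatgaaggtctgaatttttcctaaca
The run of probe 1 stood in 32 of the 55681 probes of the array (0.0575%).

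Tlr7 probe 2 read -1.52, -1.38, -1.97 and -2.26 in control, -0.82, -2.42, -0.95 and -1.56 in SFA, and -2.28, -2.44, -2.44 and -1.89 in NTS. It read -0.25, 0.29, -0.18 and 0.37 in LFA and -0.07, 0.44, 0.02 and 0.07 in NTL, so that every long-fiber mouse lay above every other mouse. The changes against control were 1.84 ± 0.31 in LFA (limma adjusted p = 0.00387) and 1.90 ± 0.31 in NTL (adjusted p = 0.00146). Tlr7 probe 1, the brightest, read 0.45, -0.03, 0.60 and 0.16 in control, 0.54, 1.004, 0.42 and 0.76 in LFA, and 1.02, 0.99, 1.06 and 1.18 in NTL. Its changes were 0.38 ± 0.29 in LFA (limma adjusted p = 0.44) and 0.77 ± 0.29 in NTL (adjusted p = 0.12), and neither was called, although all NTL mice lay above all control mice. Over the 20 arrays the levels of both probes had a Pearson r of 0.41, given as a description. Had Tlr7 been counted by its second probe, 5 receptor genes would have been called higher in LFA and 5 in NTL.

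**Figure D2:**
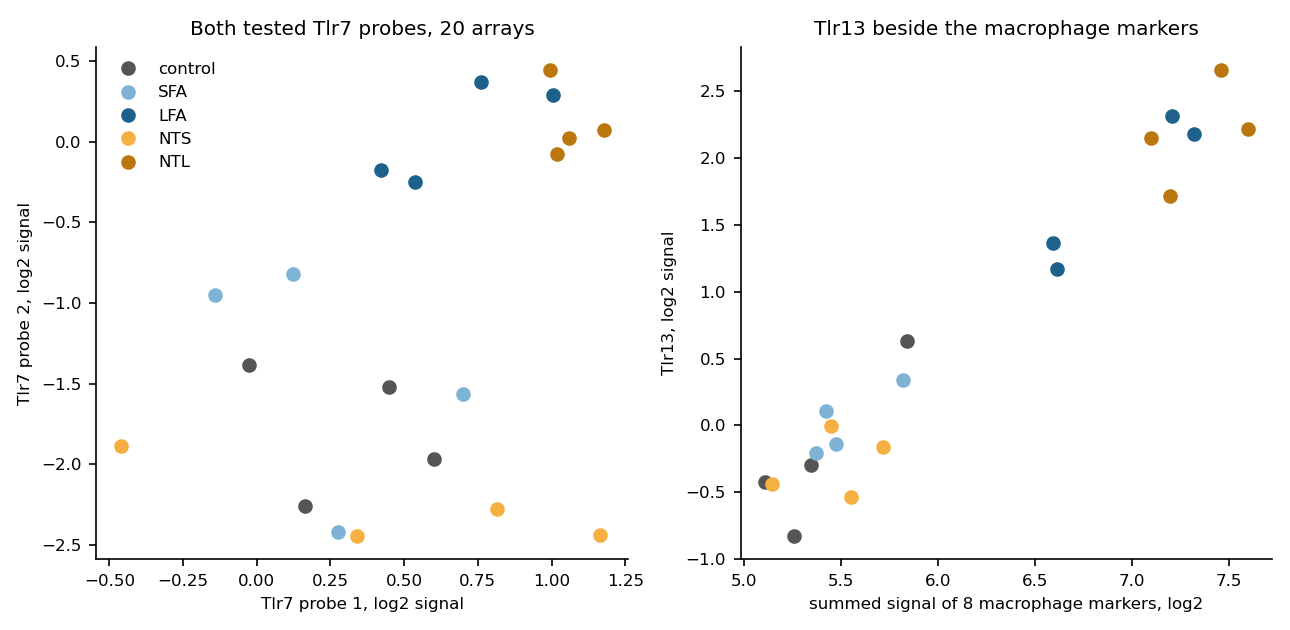
Left, level of Tlr7 probe 2 (y axis) against Tlr7 probe 1 (x axis) in the 20 mice, both as log2 signal minus the 75th percentile of the array. Right, level of Tlr13 (y axis) against the summed signal of 8 macrophage markers (x axis, log2). Points are mice colored by group; on probe 2 all LFA and NTL mice lie at -0.25 or higher and all others at -0.82 or lower, whereas on probe 1 the LFA mice overlap with control.

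Tlr3, which senses double-stranded RNA, read -2.92, -4.18, -3.86 and -4.44 in control, -2.68, -2.66, -3.09 and -2.59 in LFA, and -2.65, -2.05, -2.46 and -2.70 in NTL. All NTL mice and 3 of the 4 LFA mice lay above all control mice. The SFA mice were spread from -4.58 to -2.10 and the NTS mice from -5.23 to -2.83, and with that spread the changes of 1.09 ± 0.52 in LFA and 1.38 ± 0.52 in NTL were not called (limma adjusted p = 0.207 and 0.109).

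Tlr8, the neighbor of Tlr7 on the X chromosome, was close to background. Its probe 1 was well above background on 11 of 20 arrays and its probe 2 on 8, in both cases on all 4 NTL arrays and on 0 of the 4 NTS arrays. Probe 1 ran from -6.14 to -3.27 in control and from -4.31 to -3.24 in NTL (1.12 ± 0.51, limma adjusted p = 0.188). Probe 2 ran from -6.43 to -3.13 in control and from -4.95 to -2.85 in NTL (1.37 ± 0.78, adjusted p = 0.306). Against NTS, which gives only an upper bound, NTL was at least 1.89-fold higher by probe 1 (limma adjusted p = 0.272) and at least 1.85-fold higher by probe 2 (adjusted p = 0.0505), neither of them called.

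Tlr9, the sensor of unmethylated CpG DNA, was not higher in the long-fiber groups. Its levels were 1.95, 1.53, 1.85 and 2.08 in control, 2.19, 1.61, 1.82 and 0.75 in LFA, and 1.92, 0.70, 1.62 and 1.62 in NTL, and these groups overlapped. In NTS they were 2.28, 2.58, 3.12 and 3.14, above every control mouse, where all NTS arrays lay above all control arrays for 0.623% of probes. The changes against control were -0.26 ± 0.35 in LFA, -0.39 ± 0.35 in NTL and 0.93 ± 0.35 in NTS, none of them called (limma adjusted p = 0.674, 0.556 and 1.0). The log2 of the summed signal of 6 liver markers, which ran from 0.41 to 11.85 over the 20 arrays, was 3.60, 1.46, 11.85 and 11.60 in the 4 NTS mice. It was highest in the mice with the highest Tlr9 levels. The next highest sums were 10.98, 10.53 and 10.32 in LFA replicate 3, SFA replicate 2 and LFA replicate 1, with Tlr9 levels of 1.82, 2.38 and 2.19. Without NTS replicate 3 the NTS change of Tlr9 was 0.81, and without NTS replicate 4 it was also 0.81. The part of liver RNA in the Tlr9 levels was not tested. Tlr9 was the 1 receptor gene of 10 with a mean below control in both long-fiber groups, and these means lay near the median change of all probes.

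The comparisons of long with short fibers of the same material gave fewer calls for asbestos than for nanotubes. In LFA against SFA 1 of the 10 receptor genes was called higher, Tlr13 by 1.73 ± 0.32 (limma adjusted p = 0.0104), against 1.03% of all tested probes. Tlr7 probe 2 was also called there (2.83-fold, adjusted p = 0.0225), a call that was lost without SFA replicate 2, SFA replicate 4, LFA replicate 2 or LFA replicate 4, with the slide or the replicate number as a block, and with only the groups compared. All LFA mice also lay above all SFA mice for Tlr4 (0.46 ± 0.26, adjusted p = 0.492) and for Tlr2, whose difference of 1.34 ± 0.37 was not called (adjusted p = 0.109), where the LFA arrays lay entirely above the SFA arrays for 3.15% of all tested probes. Tlr1 and Tlr6 differed by 1.11 ± 0.40 and 1.03 ± 0.34 (adjusted p = 0.25 and 0.214).

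In NTL against NTS 6 of the 10 genes were called higher, against 4.89% of all tested probes, and 1 was called lower, against 2.71%. The higher genes were Tlr1 (2.48 ± 0.40, limma adjusted p = 0.000697), Tlr13 (2.47 ± 0.32, adjusted p = 0.000151), Tlr6 (2.04 ± 0.34), Tlr2 (1.94 ± 0.37), Tlr3 (1.74 ± 0.52) and Tlr4 (1.14 ± 0.26), and Tlr7 probe 2 was called at 2.38 ± 0.31. Tlr9 was the lower gene, at -1.31 ± 0.35 (adjusted p = 0.0272), with every NTL mouse below every NTS mouse, as for 8.33% of all tested probes. The difference between the nanotube and the asbestos length effect was itself tested and was called for 0 of the 10 genes (limma), with 2 at an unadjusted p under 0.05, Tlr1 at 1.37 ± 0.56 and Tlr9 at -1.21 ± 0.50 (adjusted p = 1.0 for both). This difference was called for 0 of all 36920 tested probes, with 644 higher and 629 lower at an unadjusted p under 0.05 (limma).

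LFA and NTL, given at different doses, did not differ in a called way for any of the 10 genes (limma; 0 at an unadjusted p under 0.05). The same held for all tested probes, of which 0 of 36920 were called, so that the count is not particular to the receptors. The 95% interval of LFA minus NTL was -1.34 to 0.32 for Tlr1, -0.73 to 0.83 for Tlr2, -1.17 to 0.28 for Tlr6 and -1.10 to 0.25 for Tlr13, and the fit does not separate the LFA and NTL levels within these intervals. In SFA against NTS 0 of 10 were called and 4 had an unadjusted p under 0.05. Of all 36920 tested probes 0 were called there, with 1115 higher and 1036 lower at an unadjusted p under 0.05 (limma).

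**Figure D3:**
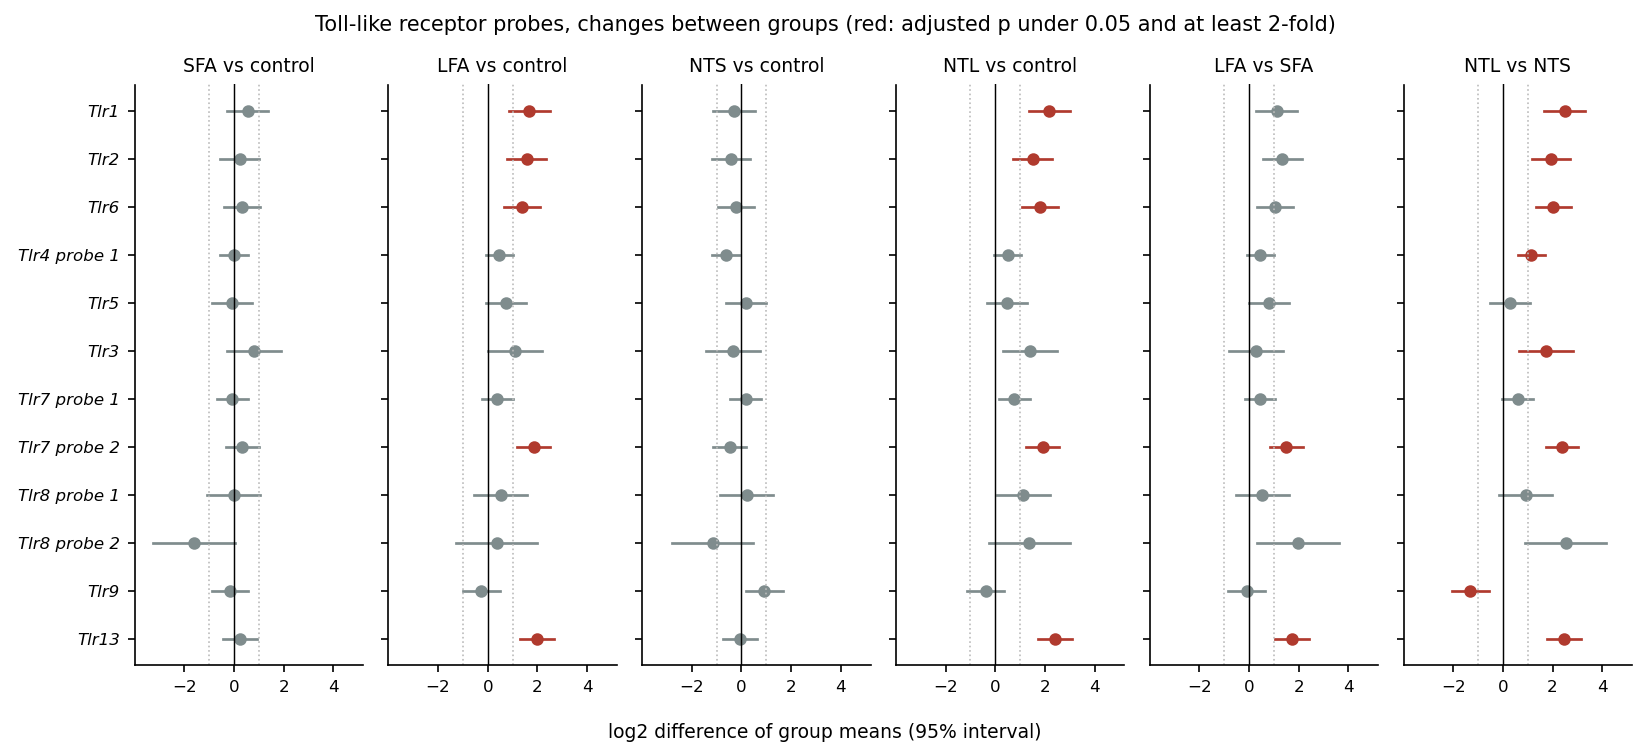
Difference of group means for the 12 tested receptor probes in 6 comparisons (x axis, log2; points are estimates and lines 95% intervals of the limma fit; dotted lines mark a 2-fold change). Red marks called probes: 5 in LFA and 5 in NTL against control, 2 in LFA against SFA and 8 in NTL against NTS, the last including Tlr9 at -1.31.

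The calls in LFA depended on single mice. When each array was left out in turn, the number of receptor genes called in LFA ran from 1 to 4: Tlr13 alone was called without control replicate 1, control replicate 4, LFA replicate 2 or LFA replicate 4, and Tlr13 and Tlr1 without control replicate 3. In NTL it ran from 3 to 5 (also Tlr8 without control replicate 2), and Tlr2 lost its call without control replicate 1, control replicate 4 or NTL replicate 2 while Tlr1, Tlr6 and Tlr13 kept theirs. In LFA against SFA the 1 call was lost without LFA replicate 2 or LFA replicate 4, and became 2 (Tlr2 and Tlr13) without control replicate 2. In NTL against NTS it ran from 5 to 7; Tlr3 lost its call in 11 of the 20 fits, and Tlr9 lost its own without NTS replicate 3, NTL replicate 2 or NTL replicate 4. Tlr7 probe 2 was called in all 20 fits in LFA and in NTL against control.

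The arrays lay on 3 slides that each held several groups but not in balance. SFA and NTL had no array on slide 1, and NTS had none on slide 3, which was scanned on another day. Within slides 1, 2 and 3 the LFA difference from control was 2.67, 1.07 and 2.48 for Tlr13, 1.82, 1.34 and 1.75 for Tlr1, 2.39, 0.76 and 1.67 for Tlr2, and 1.76, 0.80 and 1.78 for Tlr6. Within slides 2 and 3 the NTL difference was 1.61 and 2.64 for Tlr13, 2.39 and 1.38 for Tlr1, 0.77 and 1.77 for Tlr2, and 1.48 and 1.76 for Tlr6. All of these were above 0, each from 1 to 3 mice a group, and slide 2 held control replicate 2. With the slide as a block 2 genes were called in LFA (Tlr1 and Tlr13) and 3 in NTL (Tlr1, Tlr6 and Tlr13), and 4 in NTL against NTS (Tlr1, Tlr2, Tlr6 and Tlr13). NTL and NTS arrays shared slide 2 only, with 1 NTL mouse and 2 NTS mice. There NTL minus NTS was 2.63 for Tlr1, 1.94 for Tlr13, 2.20 for Tlr6, 1.72 for Tlr2, 2.21 for Tlr3, 0.79 for Tlr4 and -0.50 for Tlr9. The other NTL and NTS arrays lay on different slides, so that slide and fiber length differed together there.

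Markers of macrophages and of several other cell types moved in the same arrays as the receptors. Of 8 markers (Cd68, Adgre1, Csf1r, Mertk, Mrc1, Cd163, Fcgr1 and Lyz2), 5 were called higher in LFA and 5 in NTL, and the log2 of their summed signal was 5.11 to 5.84 in control, 5.37 to 5.82 in SFA and 5.14 to 5.72 in NTS against 6.60 to 7.32 in LFA and 7.10 to 7.60 in NTL. The summed signal of 6 skeletal muscle markers was 11.28 to 11.88 in control against 10.32 to 10.80 in LFA and 10.31 to 10.65 in NTL, and all 6 were well above background on every array. Of these 6, 1 was called lower in LFA and 1 in NTL. Control replicate 2, high for Tlr2 and Tlr13, had the highest macrophage sum of its group. Of 3 tested monocyte markers 2 were called higher in LFA and 2 in NTL, with sums of 2.49 to 3.44 in control against 4.23 to 5.44 and 4.16 to 5.57. Of 5 tested dendritic cell markers 0 were called higher in LFA and 2 in NTL, and of 5 fibroblast markers 1 and 3. Endothelial sums were 4.09 to 4.44 in control, 3.51 to 4.03 in LFA and 3.58 to 4.02 in NTL, with 0 of 4 markers called. B cell markers (3.59 to 5.23 in control, 4.10 to 5.23 in LFA and 4.24 to 5.38 in NTL) overlapped. Neutrophil, T cell and mesothelial sums overlapped with control too, with 1 of 6 neutrophil markers called higher in LFA. Sums of the plasmacytoid dendritic cell list were 9.57 to 10.61 in control, 8.75 to 9.44 in LFA and 8.97 to 9.29 in NTL. Of its 5 genes 1 was called lower in LFA and 1 in NTL. The difference between 5′ and 3′ probes of the same transcripts, a sign of RNA quality, had a Pearson r over the 20 arrays of -0.41 with Tlr13, -0.42 with Tlr1, -0.52 with Tlr6 and -0.62 with Tlr2. It had 0.51 with Tlr9, 0.40 with Tlr7 probe 1 and -0.47 with Tlr7 probe 2. Control replicate 2, the dimmest array, also had the lowest such difference of its group, -1.17 against -0.68 to -0.49 in the other control mice. With this difference as a covariate 4 receptor genes were called in LFA and 4 in NTL. The part of the marker shifts in the receptor results was not tested.

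Genes whose levels over the 20 arrays were among the most like each called receptor were named by their Pearson r among 18345 genes, as a description with no test. For Tlr1 they were Nckap1l, Ccdc88b, Dennd1c and Was (r from 0.96 to 0.98), and for Tlr6 they were Nckap1l, Gm5547, Clec4a3, Aldh3b1 and Btk (0.97 to 0.98). For Tlr2 they were Cd200r1, Iglon5, Cotl1 and Samsn1 (0.97), for Tlr13 Klrg1, Aldh3b1, Ctss and Csf1r (0.98), and for Tlr7 probe 2 Eps8, Gusb, Gpr160, Ptgs2 and Aldh3b1 (0.96 to 0.97). Was, Btk and Csf1r are known from blood and myeloid cells, where they act in the actin skeleton, signaling and growth factor sensing. With group means removed, r remained at 0.73 to 0.94 for these genes. Among the receptors themselves, Tlr6 had r = 0.96 with Tlr1 and 0.95 with Tlr2 over the 20 arrays, whereas Tlr9 had -0.64 with Tlr13. The called receptors share a rise in LFA and NTL, which by itself raises r over the 20 arrays. Within groups, Tlr6 had 0.80 with Tlr1 and 0.85 with Tlr2. Tlr1 had 0.56 with Tlr2 and 0.58 with Tlr13 within groups, and Tlr13 had 0.89 with Tlr2 and 0.74 with Tlr6.

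The pathway around the receptors was read through 96 further genes in 9 lists, of which 90 were tested. In LFA 15 were called higher and 0 lower (2.22% and 1.72% of all tested probes), and in NTL 26 were called higher and 0 lower (3.63% and 3.18%), with 0 called in SFA (limma; 0% of all probes) and 0 in NTS. The median change over the 90 genes was 0.58 in LFA and 0.68 in NTL, beside -0.28 and -0.25 over all probes. The lists were chosen from general knowledge of the pathway, with earlier results of these data known, and no test of a list was made.

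Of 12 accessory proteins that load, fold or carry the receptors, 4 rose in LFA and 5 in NTL. Cd14, the co-receptor that hands lipopolysaccharide to TLR4, rose by 2.30 ± 0.32 in LFA (limma adjusted p = 0.000742) and 2.36 ± 0.32 in NTL (adjusted p = 0.000258), from a control mean of 0.77 ± 0.15 (SD, n = 4). Nrros (1.76 and 1.94) and Ly86, the partner of CD180 (1.61 and 1.97), also rose in both, and Cd180 rose in NTL (1.90 ± 0.50, adjusted p = 0.0271), although it was well above background on 1 of the 4 control arrays. Unc93b1, which carries the endosomal receptors out of the endoplasmic reticulum, was the other gene called in both.

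Of 10 tested genes of the endolysosome, 2 rose in LFA and 3 in NTL. Ctss and Lgmn encode the proteases cathepsin S and legumain, which are known to cut endosomal receptors. Ctss rose by 2.15 ± 0.36 in LFA (limma adjusted p = 0.00371) and 2.79 ± 0.36 in NTL (adjusted p = 0.000206), and Lgmn by 1.17 ± 0.26 and 1.47 ± 0.26. Pld3, a nuclease of the lysosome, rose in NTL by 1.12 ± 0.27.

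Fewer genes were called among the signaling proteins, which was not tested as a difference between lists. Of 4 tested adaptors 0 were called in LFA and 0 in NTL; Myd88 differed by 0.87 ± 0.21 in LFA and 0.78 ± 0.21 in NTL, with limma adjusted p = 0.0308 and 0.0334 but under the 2-fold limit. Pik3ap1 was well above background on 0 of the 4 control arrays and was at least 1.36-fold higher in NTL, not called (adjusted p = 0.311). Of 18 kinases and ubiquitin ligases 1 rose in LFA and 2 in NTL, namely Ikbke (1.42 ± 0.29 and 1.58 ± 0.29) and, in NTL, Irak4 (1.12 ± 0.27). Of 9 transcription factors 0 were called in LFA and 2 in NTL, Irf5 (1.43 ± 0.37) and Irf8 (1.07 ± 0.28), both interferon regulatory factors of myeloid cells. Of 15 negative regulators 1 rose in LFA and 2 in NTL, Socs1 (1.12 ± 0.28 and 1.22 ± 0.28) and, in NTL, Nfkbie (1.26 ± 0.34).

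Genes that the receptors are known to induce had the highest list medians, 1.55 in LFA and 1.90 in NTL. Of 11 tested cytokines and surface proteins 5 rose in LFA and 10 in NTL. Il6 rose by 3.70 ± 0.50 in LFA (limma adjusted p = 0.000629) and 4.06 ± 0.50 in NTL (adjusted p = 0.000135), Il1b by 3.74 ± 0.72 and 3.38 ± 0.72, Ptgs2, which encodes an enzyme of prostaglandin synthesis, by 2.58 ± 0.46 and 2.53 ± 0.46. Il6 was well above background on 1 of the 4 control arrays and Il10 on 0, so that Il10 was at least 2.02-fold higher in LFA (limma adjusted p = 0.00558) and at least 2.52-fold higher in NTL (adjusted p = 0.000848). Many other signals induce these genes too. Of 9 endogenous ligands, 2 matrix proteins rose in both groups, Fn1 (2.34 ± 0.53 and 2.38 ± 0.53) and Vcan (1.99 ± 0.43 and 2.12 ± 0.43). Tlr11 and Tlr12, which were not among the 10 members, were called in neither group, with changes of -0.06 ± 0.32 and 1.74 ± 0.99 in LFA and 0.04 ± 0.32 and 0.91 ± 0.99 in NTL.

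**Figure D4:**
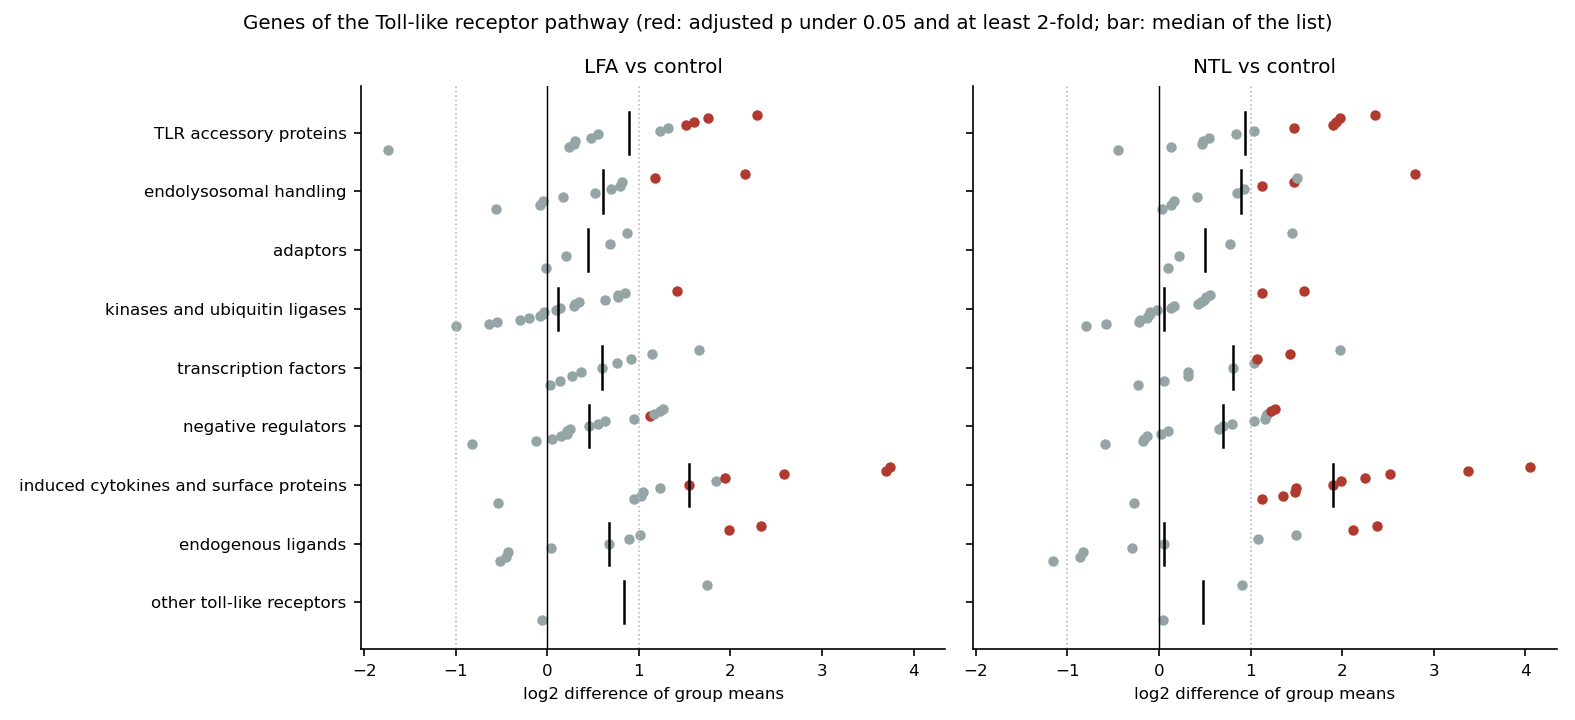
Change of each tested pathway gene (points) against control in LFA (left) and NTL (right), by list (x axis, log2 difference of group means; black bars are list medians; dotted lines mark a 2-fold change). Red marks called genes, 15 in LFA and 26 in NTL, all to the right of 1, and the induced genes lie farthest right with medians of 1.55 and 1.90.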

How the data were processed

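Total RNA of the frozen diaphragm was labeled with Cy3 and hybridized to 1-color Agilent 60K arrays. Per the submitters' processing notes the authors used Agilent Feature Extraction 10.7.3.1, and the deposited intensity values are processed signals after background subtraction. A deposited table gives the authors' normalized log2 group means. Its differences equaled those computed here (Pearson r over probes at least 0.9999995), while the centering of its columns, with medians of -0.17 to 0.21, was not given in the sources used here. From the intensities, log2 values were taken minus the 75th percentile of each array, spots flagged as outliers (92 to 204 an array) were left out, spots of a probe were averaged, and probes well above background on at least 4 of 20 arrays were tested (53.0% to 68.1% of spots were well above background). Groups were compared with limma 3.58.1 in R 4.3.3 in 1 fit over 20 arrays. Where a probe was not well above background on any array of a group, a fold is given as at least the ratio to that group's floor, per array the higher of the dimmest signal well above background and the probe's own. The script was tested on simulated data, and the number of arrays limits the precision. Figures were drawn with matplotlib 3.10.9 in Python 3.11.15. Pathway genes were named by 1 rule, up to 4 a list with the largest mean of the LFA and NTL changes among called genes, or 2 where none was called, and the 5 genes most like each member called in both groups, of which some are not reported here. Unc93b1, Tlr9 among the likenesses and Tlr11 were named beside that rule. Members and lists were chosen with earlier results of these data known. Replicate numbers were not stated to pair the mice, so the main fit had no block for them. Residuals of the 40 same-numbered pairs had r from -0.68 to 0.69, with 14 over 0.1, and were not compared with those of other pairs. Mice were caged in groups, and which mice shared a cage was not given in the sources used here. The p-values weigh group differences against the spread between mice within groups, and a shared cage could not be taken into account. Alternatives were quantile scaling, normexp background correction, other filters, the mean of probes, the slide (1 of the 3 was scanned on another day) or replicate number as a block, only the groups compared, no fold limit, an ANOVA with unequal variances as in the methods, and each array left out in turn.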

Additional observations from a re-analysis of the deposited data

Results flagged for a closer look

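In 60 sets of 4 mice, 5 groups for each of 12 tested receptor probes, 3 held a mouse far from the other 3, and chance sets 1 in 20 apart. NTL replicate 2 had a Tlr6 level of -0.95, against -1.53 to -1.48 in the other NTL mice. LFA replicate 4 had a Tlr4 level of 0.93, against 0.23 to 0.29 in the other LFA mice. Control replicate 1 had a Tlr8 probe 2 level of -3.13, against -6.43 to -6.00 in the other control mice, where that probe was well above background on this control array only.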

How the results depend on the processing

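No called change of a receptor probe turned its sign under any alternative run. The number of receptor genes called in LFA, 4, was 2 with the slide as a block and 1 with only the groups compared, and 1 to 4 with an array left out. In LFA against SFA, 1, it was 0 with only the groups compared, 2 with the difference between 5′ and 3′ probes of each array as a covariate, 2 with Tlr7 counted by its second probe (both chosen after seeing the data), and 0 to 2 with an array left out. In NTL against NTS, 7, it was 4 with the slide as a block and 5 to 7 with an array left out, and in NTL against control 3 to 5. Pathway genes called in LFA, 15, were 8 with only the groups compared and 7 to 18 with an array left out (7 without LFA replicate 2, 8 without LFA replicate 4, 9 without control replicate 1); in NTL, 26, they were 16 with the slide as a block, 15 by the methods' ANOVA and 15 to 27 with an array left out (15 without control replicate 1, 16 without control replicate 4 or NTL replicate 4). In SFA the methods' ANOVA gave 1 pathway gene in place of 0. With the replicate number as a block, 3 receptor genes were called in LFA, 4 in NTL and 5 in NTL against NTS. Tlr13 and Tlr7 probe 2 kept their calls in LFA and NTL under every alternative with a test, while Tlr6 in LFA lost its call under 6, among them quantile scaling. Normexp moved 4 called differences by over 1.5 times: Tlr6 from 1.36 to 0.70 in LFA, from 1.81 to 1.02 in NTL and from 2.04 to 1.03 in NTL against NTS, and Tlr3 from 1.74 to 0.47 there. In NTL against NTS, Tlr3 lost its call under 6 alternatives, Tlr9 under 4 (quantile scaling, both blocks and only the groups compared) and Tlr4 under 2 (normexp and the slide as a block). The authors' table gives group means only, so it has no counts. Signal over background limits Tlr8 and the probes not tested.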

Other observations

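Genes with levels most like Tlr9 over the 20 arrays, looked up after its values were seen, were A430017K17, 9330175M20Rik, Vmn1r192, Kcne1l and Ccin (Pearson r 0.96 to 0.97, and 0.94 to 0.97 with group means removed), given as a description. B cells and plasmacytoid dendritic cells are the cells best known for TLR9. Over 4 B cell markers r with Tlr9 ran from -0.63 (Ms4a1) to 0.047 (Pax5). It ran from -0.30 (Ccr9) to 0.48 (Klk1) over the 5 genes of the plasmacytoid dendritic cell list. Whether these 5 genes read plasmacytoid dendritic cells in whole diaphragm was not tested, and neither was the cell source of the Tlr9 signal. The difference between 5′ and 3′ probes of the same transcripts, at least 1000 bases apart, was -1.17 to -0.49 in control, -1.39 to -0.52 in SFA, -1.31 to -0.74 in LFA, -1.19 to -0.36 in NTS and -1.27 to -0.63 in NTL.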
